A study of Mus musculus with 12 samples.

Results

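The genes of the MHC class II antigen presentation pathway were followed in sorted peritoneal macrophages (Mϕ) of mice with zymosan-induced peritonitis. The 10 genes were chosen by name: Ciita, Cd74, H2-Aa, H2-Ab1, H2-Eb1, H2-DMa, H2-DMb1, H2-DMb2, H2-Oa and H2-Ob. All 10 were found among the 47643 gene identifiers in each of the 2 deposited tables. Female C57/BL6 mice aged 8 to 12 weeks received zymosan A (5 mg/kg), a yeast cell wall preparation that causes a self-limiting inflammation of the peritoneum. From day 1 they were injected daily with compound III (CIII, 25 mg/kg), an inhibitor of the prostaglandin E2 synthase mPGES-1, or with vehicle (VEH; 1% Tween-80, 0.5% carboxymethyl-cellulose and 0.9% NaCl). At day 6, 2 subpopulations were sorted, F4/80lo Mϕ (CD45+, CD11b+, low for F4/80 and MerTK, high for MHCII) and F4/80hi Mϕ (CD45+, CD11b+, high for F4/80 and MerTK), with 3 libraries for each treatment and 12 in all. No mutant or transgene was used, and all mice, those given VEH included, had received zymosan. The comparison asks whether blocking mPGES-1 during resolution changes class II expression in either subpopulation.

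MHC class II molecules carry peptides from engulfed proteins to the cell surface, where CD4 T cells read them. The alpha and beta chains pair in the endoplasmic reticulum with the invariant chain, which blocks the groove until proteases in endosomes cut it down, and H2-DM then exchanges its last fragment for a peptide while H2-O restrains H2-DM. Ciita, the class II transactivator, binds no DNA itself but is recruited to a shared set of promoter elements (the X and Y boxes) by RFX, CREB and NF-Y, and in Mϕ it is induced mainly by interferon-gamma and the factor Irf1 downstream of it. In the peritoneum, resident Mϕ are known for high F4/80 and low class II, while small and monocyte-derived Mϕ carry more class II.

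Libraries held between 426624 and 3389448 reads on genes, so that the 3 reads that a count of 0 allows correspond to 0.885 to 7.03 reads per 1000000 reads on genes (RPM), counting error only. Replicate number 3 stood apart in every group. The ribosomal RNA-related transcript Gm42418 took 2.65% to 14.3% of its reads, against at most 0.579% in the other libraries. The replicate 3 libraries of F4/80hi Mϕ also went against markers of resident Mϕ. Adgre1, which encodes F4/80, reached 366 (VEH) and 368 (CIII) RPM there and 1064 to 1336 in the other 4 libraries. Prg4, another gene of resident Mϕ, was at 47.6 and 21.2 against 778 to 878. Ccr2, a receptor of recruited monocytes, was at 1199 and 704 RPM against 20.2 to 306. Some genes listed with Ccr2 for monocyte-derived and small peritoneal Mϕ went the other way. Retnla was at 6.66 and 16.6 RPM against 89.4 to 536, and Mrc1 at 173 and 193 against 347 to 1003. The 10 genes of that list summed to 1939 and 1562 RPM against 1167 to 2207. The part of these differences in the class II results was not tested, so the CIII differences, the level between subpopulations and the difference between responses are also given for replicate numbers 1 and 2. In bulk RNA, fewer cells of a type and less RNA per cell cannot be told apart. The methods speak of independent experiments for the study in general, and the labels do not say whether these replicate libraries came from separate mice, so p-values measure the spread between these libraries, which may be technical.

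Class II genes took a sizeable share of the RNA in F4/80lo and a smaller one in F4/80hi Mϕ. In F4/80lo Mϕ the 10 genes held 1.36%, 1.53% and 0.328% of reads in VEH libraries 1, 2 and 3 and 2.83%, 1.58% and 1.95% with CIII. In F4/80hi Mϕ they held 0.157%, 0.0863% and 0.221% with VEH and 0.542%, 0.157% and 1.44% with CIII. The exact (Clopper-Pearson) 95% intervals of single libraries were narrow, such as 0.0795% to 0.0935% for the lowest and 2.81% to 2.86% for the highest library. The spread within a group was therefore far wider than counting error. The CIII libraries lay above the VEH libraries in F4/80lo Mϕ, by a narrow margin between VEH 2 and CIII 2, while the treatments overlapped in F4/80hi Mϕ through VEH 3 and CIII 2.

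**Figure D1:**
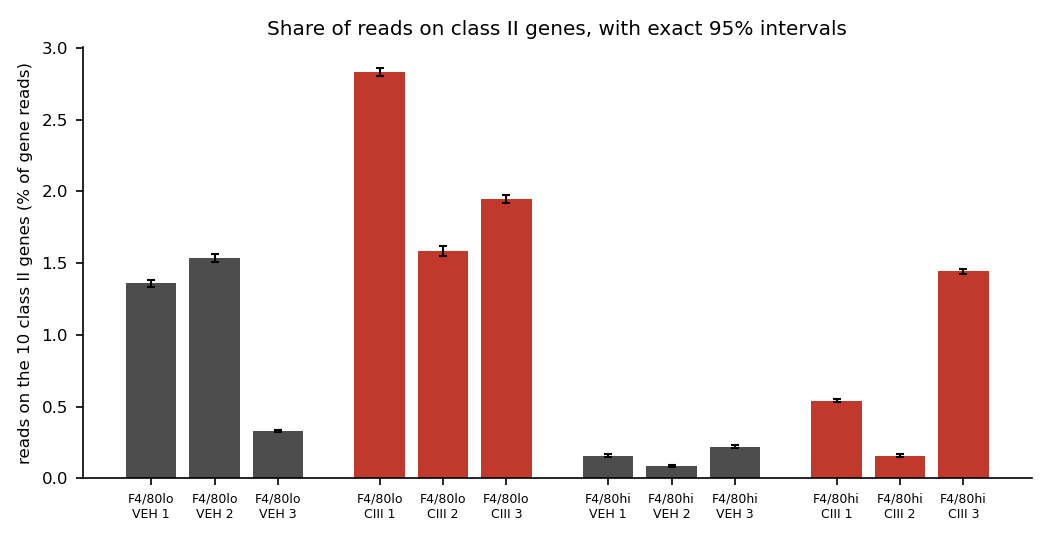
Bars give the share of gene reads on the 10 class II genes (%, axis from 0) in each of the 12 libraries, grey for VEH and red for CIII, with exact 95% intervals that cover counting error only. F4/80lo libraries range from 0.328% (VEH 3) to 2.83% (CIII 1) and F4/80hi libraries from 0.0863% (VEH 2) to 1.44% (CIII 3).

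On GRCm38 (GENCODE), Ciita lies on chromosome 16 from 10480059 to 10528418 and Cd74, the invariant chain, on chromosome 18 from 60803848 to 60812652. The others lie together on chromosome 17, from H2-Oa (34092340 to 34095234) through H2-DMa (34119541 to 34139101), H2-DMb2 (34143307 to 34151555), H2-DMb1 (34153072 to 34160230), H2-Ob (34238903 to 34254414), H2-Ab1 (34257689 to 34269419) and H2-Aa (34282744 to 34287823) to H2-Eb1 (34305867 to 34316674). H2-DMb1 and H2-DMb2 share 369 stretches of 50 bases between their transcripts, the only 1 of the 45 pairs of members to share any, so their split of reads is uncertain. Ciita overlaps Dexi and H2-DMa overlaps Brd2, both on the opposite strand, and the strand setting of the counting is not given in the sources used here.

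The abundant members were the alpha and beta chains and the invariant chain. The library kit reads 1 tag near the 3′ end of each transcript, so RPM can be set side by side between genes without dividing by length. With VEH, the mean ± SD (n = 3) in F4/80lo Mϕ was 3280 ± 2322 RPM for H2-Aa, 2981 ± 2039 for H2-Ab1, 2083 ± 868 for Cd74 and 1546 ± 896 for H2-Eb1. The genes share libraries, so these SDs do not measure the spread of a difference between 2 genes. Cd74 was above H2-Eb1 in VEH libraries 1, 2 and 3 (2414 and 1728, 2737 and 2336, 1098 and 573 RPM). The order of H2-Aa and H2-Ab1, and that of H2-Ab1 and Cd74, changed between libraries. The order was not tested. H2-DMb1 (447 ± 269) and H2-DMa (316 ± 175) formed a second tier, and Ciita (32.9 ± 18.7), H2-Ob (23.9 ± 19.1), H2-DMb2 (15.2 ± 12.2) and H2-Oa (5.59 ± 5.80) were weakly expressed. With VEH, H2-Aa in F4/80hi Mϕ was again at the head (496 ± 190), followed by H2-Ab1 (351 ± 162) and Cd74 (280 ± 195). H2-Oa and H2-DMb2 held 1 read each in the 3 F4/80hi VEH libraries together, which is not distinguishable from 0 at this depth.

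By mean level, class II genes were higher in F4/80lo than in F4/80hi Mϕ, which the sort itself used, since the F4/80lo gate selected class II protein on the surface. The level between subpopulations is therefore a description with no test. With VEH, the fold of F4/80lo over F4/80hi Mϕ, from mean RPM, was 8.49 for H2-Ab1, 8.20 for H2-Eb1, 7.45 for Cd74, 7.19 for Ciita, 6.61 for H2-Aa, 4.46 for H2-DMb1 and 2.54 for H2-DMa. With CIII the same ratios were 3.08, 2.49, 3.18, 1.59, 3.14, 3.17 and 2.60. The median over 8 members with enough reads was 7.32-fold with VEH, and over 9 members 3.14-fold with CIII. The ratio rested on replicate numbers 1 and 2, where the median was 15.1-fold (VEH) and 6.61-fold (CIII). In replicate number 3 it was 1.59-fold and 1.39-fold, and there the libraries labelled F4/80hi came closest to their F4/80lo partners. With VEH in number 3, H2-Aa was level (1.01-fold) and H2-DMa (0.973-fold) and H2-DMb1 (0.884-fold) were lower in F4/80lo Mϕ.

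**Figure D2:**
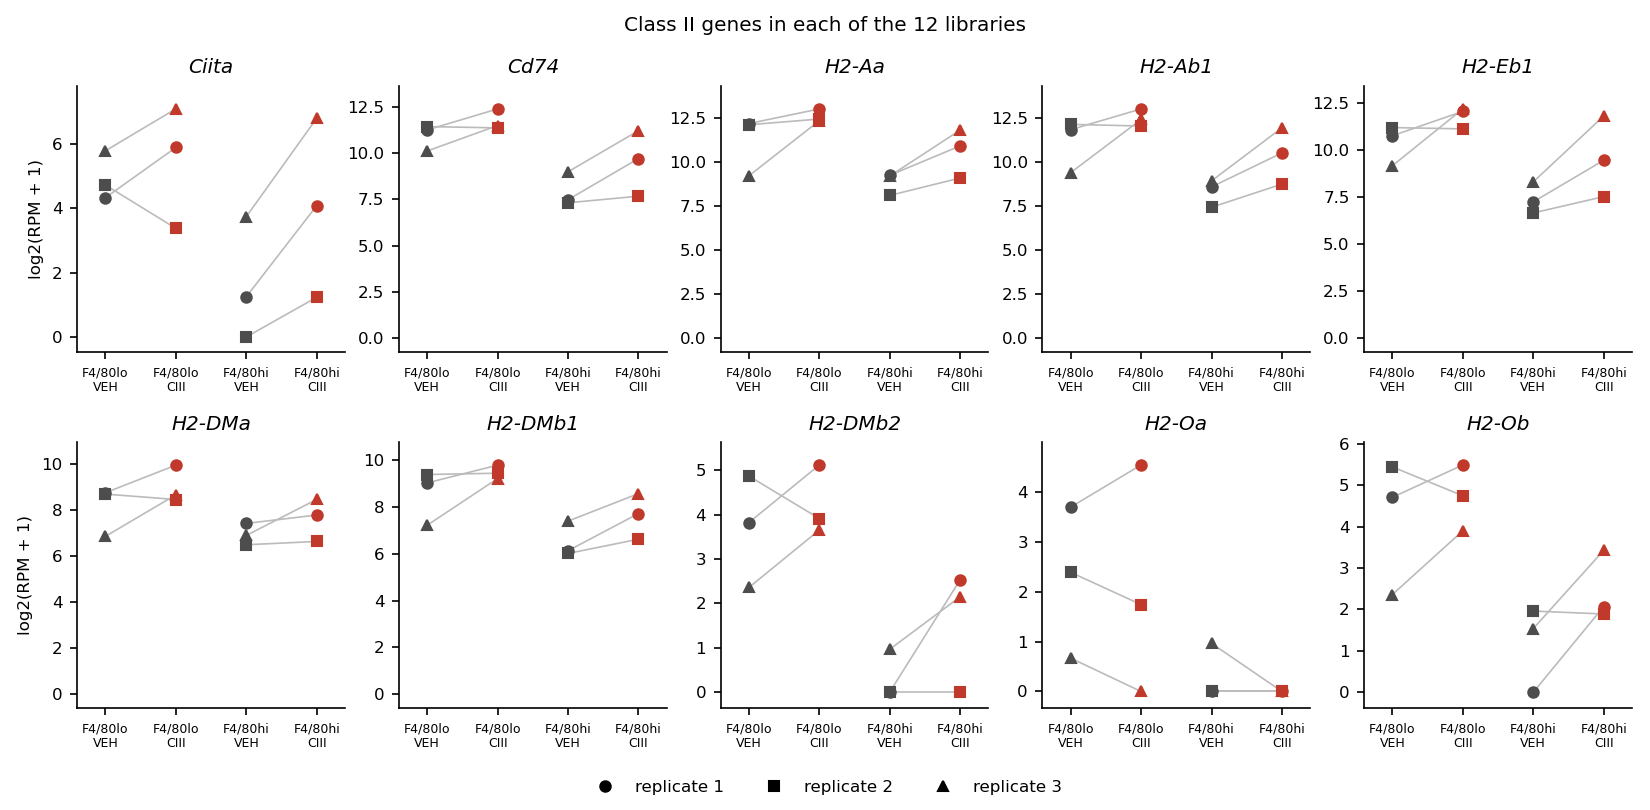
Each panel shows 1 gene in the 12 libraries as log2(RPM + 1), with symbols for the replicate number, grey for VEH and red for CIII, and lines that join libraries of the same number within a subpopulation. The lines of F4/80hi Mϕ for Cd74, H2-Aa, H2-Ab1 and H2-Eb1 all climb from VEH to CIII, whereas in F4/80lo Mϕ those of number 2 fall slightly for Cd74, H2-Ab1 and H2-Eb1.

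The promoters of class II genes are known for a shared spacing of motifs, shown here because Ciita, a member, is recruited to them. RefSeq windows (GRCm38.p6, 250 bases before to 50 after the start) were found for H2-Oa, H2-DMa, H2-DMb2, H2-DMb1, H2-Ob, H2-Aa and H2-Eb1, and none for Ciita, Cd74 and H2-Ab1. In each stretch below, written 5′ to 3′ on the gene's strand, capitals mark the letters GNAAC (the start of an X box) and GATTGG (a Y box core, the reversed CCAAT motif).
H2-Aa: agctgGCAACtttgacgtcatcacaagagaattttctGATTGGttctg
H2-Eb1: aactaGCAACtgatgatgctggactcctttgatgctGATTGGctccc
H2-DMb1: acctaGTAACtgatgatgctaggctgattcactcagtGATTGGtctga
H2-DMb2: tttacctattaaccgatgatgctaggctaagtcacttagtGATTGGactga
H2-Oa: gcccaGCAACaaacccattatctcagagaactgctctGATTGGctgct
H2-Ob: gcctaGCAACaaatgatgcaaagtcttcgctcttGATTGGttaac
On chromosome 17 these stretches are chr17:34287862-34287909 (H2-Aa, minus strand), chr17:34305771-34305817 (H2-Eb1), chr17:34153092-34153139 (H2-DMb1), chr17:34145118-34145168 (H2-DMb2), chr17:34092298-34092345 (H2-Oa) and chr17:34238813-34238857 (H2-Ob), the last 5 on the plus strand. The 2 motifs stood 24 to 27 bases apart in H2-Aa, H2-Eb1, H2-DMb1, H2-Oa and H2-Ob, and the Y core began 44 to 62 bases before the start. In H2-DMb2 the Y core, 91 bases before the start, stood without GNAAC at that spacing, as did the 1 in H2-DMa, 199 bases before the start of 1 of its 2 windows. Starts are those of RefSeq. They equal the first base of the GENCODE gene above for H2-Aa and H2-Eb1 and lie inside it for the others, by 2 bases in H2-Ob, 39 in H2-Oa, 119 in H2-DMb1, 1942 in H2-DMb2 and 3291 and 5977 in H2-DMa. The letters GNAAC were chosen after these windows were read, and with N free they occur on either strand in 84.8% of all 32851 windows, GATTGG in 16.1% and the pair 20 to 30 bases apart on 1 strand in 0.651%. A longer X pattern, GNNACNGAT, occurred in 7.82% of windows and before GATTGG at that spacing in 0.0365%, H2-Eb1 and H2-DMb1 among them. A match is a description of these letters and not a measured binding site.

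In F4/80lo Mϕ, the normalized counts of the alpha, beta and invariant chains were higher in all 3 CIII libraries than in any VEH library, which held in RPM for H2-Aa alone. In RPM, CIII 2 lay below VEH 2 for H2-Ab1 (4273 and 4563), Cd74 (2609 and 2737) and H2-Eb1 (2227 and 2336). H2-Eb1, the beta chain of H2-E, had normalized counts of 1683, 2123 and 647 in VEH libraries 1, 2 and 3 and of 3920, 2170 and 4427 with CIII. VEH 3 was the lowest, and VEH 2 and CIII 2 were almost level. Its log2 fold change was 1.34 (SE 0.53) with an unadjusted limma p = 0.0273 and an exact permutation p = 0.1. H2-Aa, the alpha chain of H2-A, had 4603, 4100 and 680 normalized counts with VEH and 7750, 5496 and 5046 with CIII, a log2 fold change of 1.35 (SE 0.69, unadjusted limma p = 0.0761, exact permutation p = 0.1). The groups did not overlap, and VEH 3 was again far below VEH 1 and 2. H2-Ab1, its beta chain, had 3602, 4147 and 768 normalized counts with VEH and 7731, 4165 and 5272 with CIII, a log2 fold change of 1.29 (SE 0.65, unadjusted limma p = 0.0706, exact permutation p = 0.1). Here VEH 2 and CIII 2 were level (1.00-fold). Cd74 had 2350, 2488 and 1239 normalized counts with VEH and 4890, 2543 and 2714 with CIII, a log2 fold change of 0.74 (SE 0.48, unadjusted limma p = 0.148, exact permutation p = 0.1).

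The peptide editors had smaller differences than the alpha and beta chains in F4/80lo Mϕ. H2-DMb1, the beta chain of H2-DM, had 509, 608 and 167 normalized counts with VEH and 816, 678 and 567 with CIII, so that CIII 3 fell below VEH 2. H2-DMa, its alpha chain, had 414, 371 and 129 with VEH and 902, 338 and 381 with CIII, and CIII 1 alone stood above all VEH libraries. Their log2 fold changes were 0.87 (SE 0.48) and 0.85 (SE 0.52). The weakly expressed H2-DMb2 (4.66 to 25.7 normalized counts with VEH, 11.1 to 31.2 with CIII), H2-Ob (4.66 to 38.5 and 13.3 to 40.4) and H2-Oa (0.666 to 11.6 and 0 to 20.6) overlapped between treatments. H2-Ob and H2-Oa form H2-O, the modulator of H2-DM that is best known from B cells. Ciita had 18.6, 23.1 and 61.3 normalized counts with VEH and 53.9, 9.14 and 129 with CIII, with no separation of the groups and a log2 fold change of 0.43 (SE 0.81). Its highest VEH library was number 3, in which H2-Aa, H2-Ab1 and H2-Eb1 were lowest.

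Over the 10 members in F4/80lo Mϕ, 9 had a log2 fold change above 0, and the median was 0.79, beside -0.052 over all 10718 genes tested. None passed an adjusted p of 0.05 (Benjamini-Hochberg in limma, adjusted p = 1.00 for each), as for 0% of all genes. Of the members 1 (H2-Eb1) had an unadjusted p under 0.05 in the higher direction, where 1.08% of all genes did. In normalized counts the groups did not overlap, with CIII higher, for 4 of the 10 members and for 3.82% of all genes, and in RPM for 1 member and 4.92% of all genes. For the 4 the exact permutation test on normalized counts, two-sided, gave p = 0.1, the smallest that 3 against 3 libraries allow. With the replicate number as a block, 5 members (H2-Aa, H2-Ab1, H2-Eb1, H2-DMa and H2-DMb1) had an unadjusted limma p under 0.05, between 0.0117 and 0.0234, where 3.03% of all genes did so in the higher direction, and their adjusted p was 0.682 or more. The difference depended on single libraries. With numbers 1 and 2 only, 0 members had an unadjusted p under 0.05 in limma, against 2.17% of all genes in the higher direction, and the median was 0.46. Without VEH 3 alone the count was 0 and the median 0.37, without CIII 1 they were 0 and 0.42, and without CIII 3 they were 0 and 0.94.

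Within replicate numbers the F4/80lo response was uneven. In number 1 CIII exceeded VEH for all 10 members, at a median log2 difference of 1.08, in number 3 there were 9 with a median of 1.45, and in number 2 there were 5 with a median of -0.064. The fold of H2-Ab1 was 2.15, 1.00 and 6.86 in numbers 1, 2 and 3, and that of H2-Eb1 was 2.33, 1.02 and 6.85. CIII was higher in all 3 numbers for 5 members (Cd74, H2-Aa, H2-Ab1, H2-Eb1 and H2-DMb1) in normalized counts, where 13.1% of all genes were. In RPM this held for 2 (H2-Aa and H2-DMb1), where 15.6% of all genes were.

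In F4/80hi Mϕ, the alpha and beta chains and the invariant chain were higher with CIII than with VEH in each of the 3 replicate numbers, starting from lower levels and over a wider range. H2-Ab1 had 374, 157 and 542 normalized counts in VEH libraries 1, 2 and 3 and 1338, 385 and 3800 with CIII. CIII 3 was the highest and CIII 2 lay among the VEH libraries, so the groups overlapped. Its log2 fold change was 1.98 (SE 0.78, unadjusted limma p = 0.0319, exact permutation p = 0.2). H2-Aa had 592, 251 and 657 normalized counts with VEH and 1769, 490 and 3486 with CIII, a log2 fold change of 1.65 (SE 0.70, unadjusted limma p = 0.0415, exact permutation p = 0.3). H2-Eb1 had 145, 90.1 and 347 with VEH and 632, 162 and 3413 with CIII, a log2 fold change of 2.08 (SE 0.96, unadjusted limma p = 0.0576, exact permutation p = 0.2). For H2-Eb1 the mean of the CIII libraries was 7.23 times that of the VEH libraries, and CIII 3 alone supplied most of that mean. Cd74 had 170, 142 and 556 normalized counts with VEH and 749, 179 and 2241 with CIII, a log2 fold change of 1.49 (SE 0.86, unadjusted limma p = 0.115, exact permutation p = 0.2).

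Ciita was near the limit of detection in part of the F4/80hi libraries. It had 1, 0 and 13 reads with VEH and 20, 1 and 193 with CIII, which are 1.33, 0 and 13.6 normalized counts against 14.4, 1.20 and 106. Replicate 2 thus held at most 1 read in either treatment and gives no direction, while numbers 1 and 3 were 10.9-fold and 7.75-fold higher with CIII. The ratio in number 1 rests on a single VEH read. The log2 fold change was 2.24 (SE 1.43, unadjusted limma p = 0.151, exact permutation p = 0.4). H2-DMb1 had 66.5, 57.5 and 185 normalized counts with VEH and 190, 86.5 and 362 with CIII (log2 fold change 1.02, SE 0.60). H2-DMa had 162, 79.7 and 129 with VEH and 196, 86.5 and 332 with CIII (log2 fold change 0.58, SE 0.51), the smallest difference among the members tested. H2-Ob held 4 reads with VEH and 23 with CIII over 3 libraries each, 17 of them in CIII 3. H2-DMb2 held 1 and 12 reads and H2-Oa 1 and 0, and both fell below the mean of 3 normalized counts required for testing.

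All 8 members tested in F4/80hi Mϕ had a log2 fold change above 0. The median over the 10 members was 1.35, beside 0.053 over all 10499 genes tested. None passed an adjusted p of 0.05 in limma (0.992 for each), as for 0% of all genes. Of the 8, 2 (H2-Aa and H2-Ab1) had an unadjusted p under 0.05, where 1.29% of all genes did in the higher direction. The treatments overlapped for all 8, while 4.73% of all genes were higher without overlap (0 members and 6.88% of all genes in RPM), and the smallest exact permutation p among the members was 0.2. CIII was higher in each of the 3 replicate numbers for 7 of the 8 (Ciita by a single read in number 2), where 17.2% of all genes were, and in RPM again for 7, where 22.2% of all genes were. With the replicate number as a block, 6 members had an unadjusted limma p under 0.05, against 5.07% of all genes in the higher direction. Among them were H2-Ab1 (6.62e-05), H2-Eb1 (0.000263), H2-Aa (0.000286), Cd74 (0.00139), H2-DMb1 (0.00349) and Ciita (0.00563). Their adjusted p ran from 0.155 to 0.221 in limma. In DESeq2 on the recovered reads with the same block, added after seeing the data, 4 members passed an adjusted p of 0.05, namely H2-Ab1 (5.94e-06), H2-Eb1 (0.000111), H2-Aa (0.000274) and Cd74 (0.00582), with 0.133% of all genes called higher. edgeR with the same block called 0 members at an adjusted p of 0.05 and 6 at an unadjusted p under 0.05. The members were listed with earlier results of these libraries known, so these counts are not independent evidence of a direction.

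**Figure D3:**
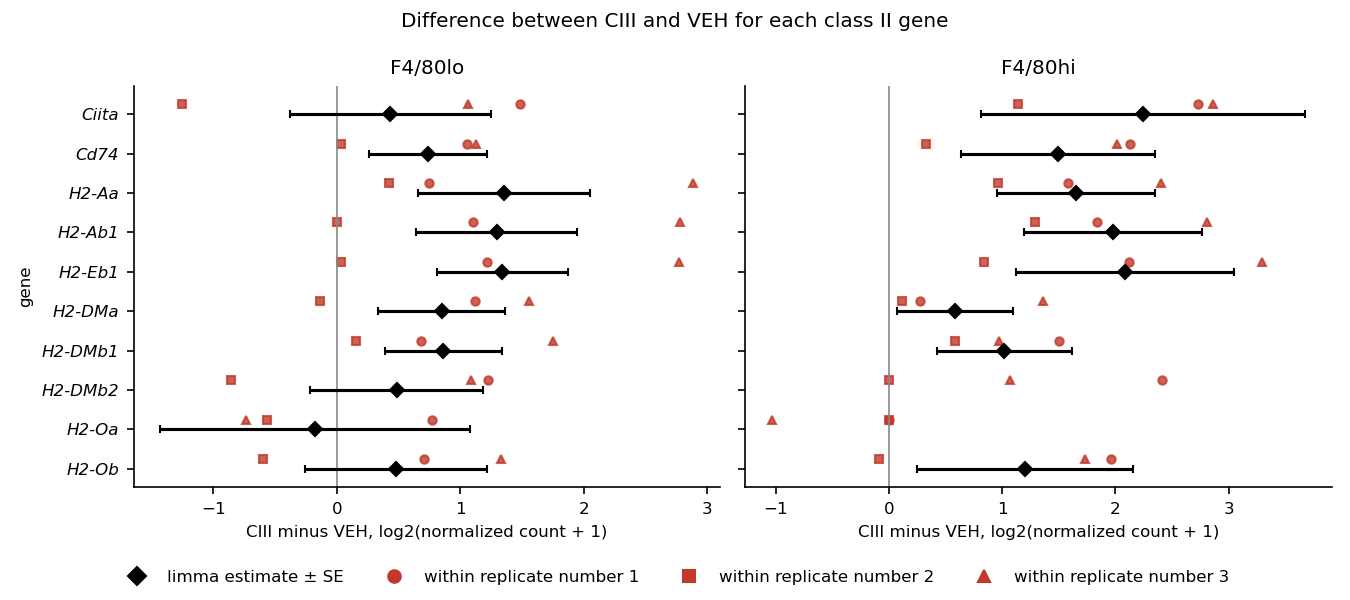
Black diamonds with bars give the limma estimate ± SE of CIII minus VEH on the log2(normalized count + 1) scale for each gene (n = 3 per treatment), and red symbols the difference within each replicate number, at left for F4/80lo and at right for F4/80hi Mϕ. The symbols of number 2 lie closest to 0 for the abundant genes in both subpopulations, and no diamond is drawn for H2-DMb2 and H2-Oa in F4/80hi Mϕ, which were not tested.

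The difference in F4/80hi Mϕ was also present with replicate numbers 1 and 2 only. There Cd74, H2-Aa, H2-Ab1, H2-Eb1 and H2-DMb1 had an unadjusted limma p under 0.05 (0.0185 to 0.0480, adjusted p of 0.626 or more), where 3.48% of all genes did in the higher direction, and the median was 1.22. Markers of other Mϕ subsets and cells moved in the same 4 libraries, in both directions. Ccr2 had a log2 fold change of 2.44 and Ighm, a B cell gene, of 3.67, while the resident genes Timd4 and Icam2 stood at -1.27 and -1.12, each with an unadjusted p under 0.05 and an adjusted p = 0.626 in limma. Against these, resident Mertk stood at 0.77 (adjusted p = 0.657) and Retnla, of the same list as Ccr2, at -1.79 (adjusted p = 0.626), also with an unadjusted limma p under 0.05. Of the 9 genes of that list tested, 3 were higher at such a p (Ccr2, Cx3cr1 and Itgb7) and 1 lower (Retnla). The neutrophil gene S100a8 was lower at such a p. In RPM, Ccr2 was at 52.5 and 20.2 with VEH and at 306 and 118 with CIII. The part of these cells in the difference was not tested. Without CIII 3 alone the median was 0.77 and 0 members had an unadjusted p under 0.05. The median log2 difference within numbers was 1.90, 0.46 and 1.87 for numbers 1, 2 and 3. The fold of H2-Ab1 was 3.58, 2.45 and 7.01 and that of H2-Aa was 2.99, 1.95 and 5.30.

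The response of the members was not shown to differ between the subpopulations. The difference between the log2 fold changes (F4/80lo minus F4/80hi) was tested for 8 members in limma over all 12 libraries. It had an unadjusted p under 0.05 for 0 of the 8, where 1.71% of all 10097 genes did in either direction. For Ciita it was -1.81 (SE 1.85) and for H2-Eb1 -0.74 (SE 1.22), both with an adjusted p = 0.999, and the latter turned to 0.39 without F4/80hi CIII 3. With replicate numbers 1 and 2 only, the count was again 0 of 8, and the differences were -1.82 (SE 1.55) and -0.85 (SE 0.75), both with an adjusted p = 0.992. With the block, edgeR and DESeq2 on the recovered reads gave Ciita alone an unadjusted p under 0.05, with differences of -2.35 and -2.34 and an adjusted p = 0.999 in both, while limma gave 0 members.

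The composition of the class II reads also varied between libraries. H2-Eb1 reads per H2-Aa read were 0.951, 0.877, 0.528 and 0.979 in the replicate 3 libraries of F4/80lo VEH, F4/80lo CIII, F4/80hi VEH and F4/80hi CIII, and 0.245 to 0.518 in the other 8 libraries. All 4 libraries of number 3 were above the rest. Cd74 reads per H2-Aa read reached 1.82 in F4/80lo VEH 3 and lay between 0.288 and 0.845 elsewhere. The peptide editors made up a larger part in F4/80hi Mϕ with VEH. There were 206, 276 and 203 reads on H2-DMa and H2-DMb1 per 1000 reads on H2-Aa, H2-Ab1 and H2-Eb1 in the 3 F4/80hi VEH libraries and 103, 167 and 64.9 with CIII, which did not overlap. In F4/80lo Mϕ the same ratio was 93.3, 94.4 and 141 with VEH and 88.6, 85.9 and 64.3 with CIII, which did not overlap either, by a narrow margin. These ratios were chosen after the values were seen and were not tested.

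**Figure D4:**
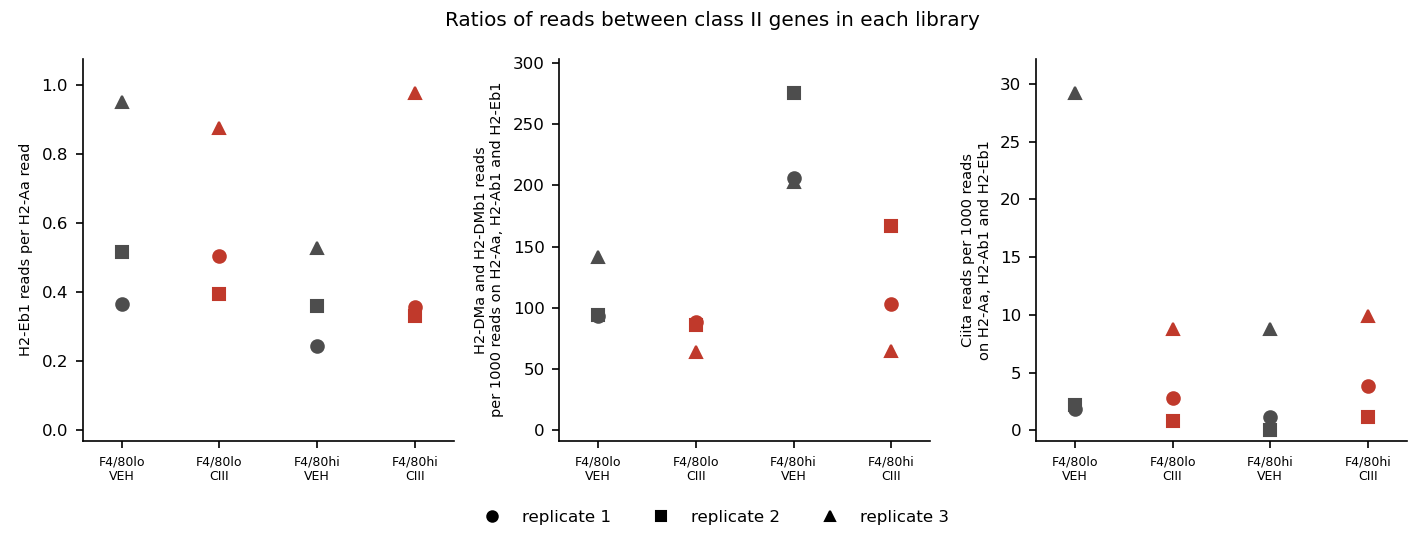
Each panel shows a ratio of reads between class II genes in the 12 libraries, with symbols for the replicate number, grey for VEH and red for CIII. Replicate 3 (triangles) is highest in each group for H2-Eb1 per H2-Aa and for Ciita per 1000 chain reads, the latter up to 29.3 in F4/80lo VEH 3.

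Ciita and the genes it controls ran together in F4/80hi Mϕ, while in F4/80lo Mϕ 1 library decided their relation. Across the 6 libraries of a subpopulation, Pearson's r between Ciita and the mean of Cd74, H2-Aa, H2-Ab1 and H2-Eb1 was 0.969 in F4/80hi and 0.025 in F4/80lo Mϕ, as a description over libraries that share replicate numbers. Without VEH 3 the r in F4/80lo Mϕ was 0.648, and leaving out any other library there gave -0.233 to 0.124. In F4/80hi Mϕ it was 0.922 or more without any 1 library. There VEH 1, VEH 2 and CIII 2 held 1, 0 and 1 Ciita reads, so their order by Ciita is within counting error. The difference between the subpopulations was not tested. The highest Ciita level per chain read was in F4/80lo VEH 3, with 29.3 Ciita reads per 1000 reads on H2-Aa, H2-Ab1 and H2-Eb1. The next highest were 8.77 to 9.87 in the 3 other libraries of number 3, and the 8 libraries of numbers 1 and 2 lay between 0 and 3.86.

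**Figure D5:**
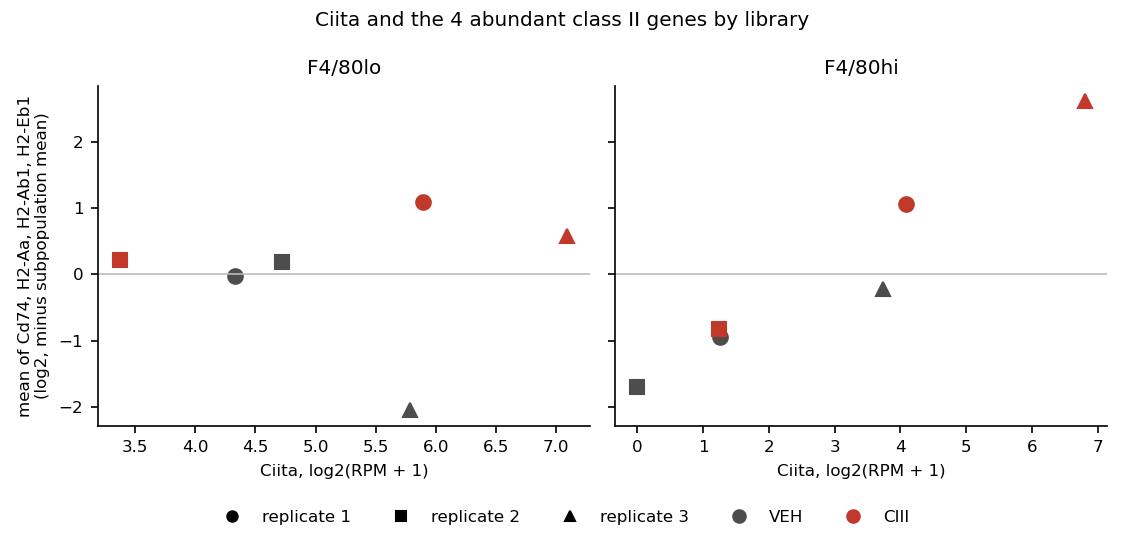
Each point is 1 library, with Ciita as log2(RPM + 1) on the horizontal axis and the mean of Cd74, H2-Aa, H2-Ab1 and H2-Eb1 (log2, minus the mean of the subpopulation) on the vertical axis. F4/80hi points lie along a rising line to CIII 3 at 2.61, and in F4/80lo Mϕ VEH 3 lies lowest at -2.06 with the third highest Ciita level. F4/80hi VEH 1, VEH 2 and CIII 2 hold 1, 0 and 1 Ciita reads.

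Over all 12 libraries, the genes outside the list whose pattern was most like that mean were Nsmaf (Pearson's r 0.906), Plekho2 (0.883), Tlr2 (0.882), Cx3cr1 (0.871), Nfatc3 (0.865), Spn (0.841), Zdhhc9 (0.826), Bcl3 (0.825), Chic2 (0.823) and Purb (0.819), out of 7835 genes compared, each gene centred within its subpopulation. Tlr2 is a receptor for yeast wall components and Cx3cr1 the receptor for fractalkine, which marks monocyte-derived Mϕ. Among the members compared that were not part of the mean, H2-DMb1 (0.958) and H2-DMa (0.883) followed it as closely, and Ciita less so (0.714).

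Of 29 other genes of the pathway, 27 were tested in F4/80lo Mϕ, and 26 in F4/80hi Mϕ. Of the former, 19 had higher and 8 lower values under CIII (median log2 fold change 0.33), and of the latter 21 and 5 (median 0.30). None passed an adjusted p of 0.05 in limma. Rfx5, a DNA-binding subunit of RFX, was the 1 gene with an unadjusted p under 0.05 in F4/80lo Mϕ (log2 fold change 1.22, SE 0.52, adjusted p = 1.00), and there was none in F4/80hi Mϕ. Over all genes in F4/80lo Mϕ, 1.08% had such a p in the higher direction. Rfx5 had 17.9, 11.3 and 10.03 RPM with VEH and 52.3, 25.8 and 25.5 with CIII, so all CIII libraries were higher. In RPM this held for 4.92% of all genes. With the block, 4 of the 27, namely Rfx5, Irf1 (log2 fold change 1.34), Irf4 (1.30) and Ctsh (0.65), had an unadjusted limma p under 0.05 in F4/80lo Mϕ, where 3.03% of all genes did in the higher direction, with an adjusted p between 0.672 and 0.689. In the F4/80hi table these were 2 of 26, Irf1 (0.99, adjusted p = 0.355) and March1 (1.40, adjusted p = 0.282), a share near the 5.07% of all genes, and all were higher with CIII. Irf1 is an interferon-induced activator of Ciita, Irf4 a transcription factor of the same family, Ctsh a lysosomal protease and March1 a ubiquitin ligase that removes class II from the surface. Irf1 was higher with CIII within each number, with 150, 123 and 750 RPM (VEH) against 779, 204 and 862 (CIII) in F4/80hi Mϕ.

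In the other groups of the pathway no gene had an unadjusted limma p under 0.05 over all 3 replicate numbers without the block. With numbers 1 and 2 only, Lgmn, a lysosomal protease, had one in both subpopulations (0.91 on the log2 scale with adjusted p = 0.769 for F4/80lo, 0.74 with adjusted p = 0.663 for F4/80hi Mϕ), where 2.17% and 3.48% of all genes did in the higher direction. March1 (1.83) and Irf1 (1.49) had one in F4/80hi Mϕ (adjusted p = 0.626 for both), and Irf1 (1.94) in F4/80lo Mϕ (adjusted p = 0.0619). Of the 8 genes of peptide processing, such as Ctss, which cuts the invariant chain, 5 were higher in F4/80lo Mϕ, and 7 in F4/80hi Mϕ, with medians of 0.37 and 0.28. Their summed level in F4/80hi Mϕ was 16751, 11662 and 10166 RPM with VEH and 17685, 17807 and 17092 with CIII, without overlap. March1 and March8, with the second beta chain H2-Eb2 at 0, summed there to 119, 139 and 150 RPM with VEH and 188, 167 and 261 with CIII, also without overlap. In F4/80lo Mϕ both sums overlapped between treatments. The first was 7862 to 9871 RPM with VEH and 8959 to 12073 with CIII, the second 129 to 231 and 138 to 249. Of all single genes in F4/80hi Mϕ, 6.88% were higher with CIII without overlap in RPM. The sums were not tested. Of the costimulation genes, such as Cd40 and Cd86, 5 were tested in each subpopulation, with 2 and 3 higher and medians of -0.28 and 0.11, and none had an unadjusted p under 0.05 in limma with or without the block.

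Other cells that carry class II were followed by their markers. By the study's gates, CD11c+ MHCII+ dendritic cells and CD11b- lymphoid cells were set aside before the Mϕ were sorted, and Ly6G+ neutrophils before the F4/80lo gate. The summed level of 12 B cell markers was 23.3 to 137 RPM (VEH) and 27.8 to 226 (CIII) in F4/80lo Mϕ and 5.52 to 45.7 and 14.3 to 79.0 in F4/80hi Mϕ. In F4/80hi CIII 3, the F4/80hi library with the most class II, it was 14.3, the lowest of the CIII libraries. In F4/80lo CIII 1, the F4/80lo library with the most class II, it was 226, the highest of all 12 libraries. Ighm, the IgM heavy chain, made up most of the highest sum and was above 0 in 11 of the 12 libraries, with 12.7 to 120 RPM over the F4/80lo libraries and at most 43.1 over those of F4/80hi Mϕ. Of the B cell receptor chains, Cd79b reached 13.1 RPM and was above 0 in 9 libraries, and Cd79a reached 4.69 RPM and was at 0 in 9. The 12 dendritic cell markers summed to 548 to 1736 (VEH) and 981 to 1908 (CIII) in F4/80lo Mϕ and to 511 to 810 and 682 to 1403 in F4/80hi Mϕ, where Clec10a and Sirpa, which Mϕ also express, made up most of the sum. The defining Flt3 was at 0 in 5 of the 6 F4/80hi libraries and Zbtb46 at or below 0.798 RPM in 5 of them. In F4/80lo Mϕ these genes were present and were lowest in VEH 3, the library with the least class II. Flt3 was at 21.5, 28.2 and 1.18 RPM in VEH 1, 2 and 3 and at 31.5, 35.2 and 3.48 with CIII. Cd209a was at 100.4, 138 and 1.48 with VEH and at 54.6, 68.0 and 15.1 with CIII. Itgax, which encodes CD11c, was at 39.4, 130 and 2.07 with VEH and at 73.8, 53.9 and 48.7 with CIII. Of the dendritic genes tested in F4/80lo Mϕ, 8 of 9 had a log2 fold change above 0, which became 6 of 9 with numbers 1 and 2 only. Btla had an unadjusted limma p under 0.05 (log2 fold change 2.08, adjusted p = 1.00), and with numbers 1 and 2 only so did Btla (2.18) and, lower with CIII, Cd209a (-0.93), both with an adjusted p = 0.840. The 10 T and NK cell markers summed to at most 44.5 and the 8 neutrophil markers to at most 128 RPM, with Ly6g at 0 in 10 of the 12 libraries. S100a8, a neutrophil gene, was lower with CIII at an unadjusted limma p under 0.05 in F4/80hi Mϕ (adjusted p = 0.992), with 41.4, 27.5 and 74.2 RPM with VEH and 13.6, 6.77 and 14.3 with CIII. The part of these cells in the class II results was not tested.

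Markers of the Mϕ subsets themselves were also followed. Of 10 genes of monocyte-derived and small peritoneal Mϕ, Cx3cr1 and Itgb7 had an unadjusted limma p under 0.05 in both subpopulations, which the study had singled out in these samples. Retnla and Fcrls, of the same list, were lower with CIII in numbers 1 and 2 of F4/80lo Mϕ and not in number 3. Retnla had 1855, 4491 and 7.38 RPM with VEH and 183, 375 and 17.4 with CIII, and Fcrls 87.2, 239 and 0.885 with VEH and 13.1, 7.03 and 2.32 with CIII. With replicate numbers 1 and 2 only, their log2 fold changes were -3.44 (adjusted p = 1.56e-05 in limma) and -3.76 (adjusted p = 0.00185 in limma). Cx3cr1 had a log2 fold change of 1.49 in F4/80lo Mϕ (adjusted p = 1.00) and 1.71 in F4/80hi Mϕ (adjusted p = 0.992). Of 10 genes of resident Mϕ, Mertk had an unadjusted limma p under 0.05 in F4/80hi Mϕ (log2 fold change 0.77, adjusted p = 0.992), the others had an unadjusted p above 0.05, and the summed level of the 10 was 730 to 4424 RPM with VEH and 1025 to 3825 with CIII.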

How the data were processed

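The authors made 3′ tag libraries with unique molecular identifiers, mapped reads to GRCm38 with STAR, counted them with HTSeq and divided them by DESeq2 size factors, separately for each subpopulation. The deposited values are such size-factor normalized counts, a signal per gene. All values (100%) were whole multiples of 1 read (tolerance 0.01 reads), so reads and depth were recovered. Each subpopulation was tested with limma 3.58.1 (R 4.3.3) on log2(normalized count + 1), two-sided, in genes with a mean of at least 3, with Benjamini-Hochberg adjustment over all of them; fold changes on this scale understate those of weak genes. edgeR 4.0.16 and DESeq2 1.42.0 on recovered reads, other filters, pseudocounts and scalings, left-out libraries and the replicate block were alternatives. Scripts were tested on simulated data. Libraries of the same replicate number deviated together (F4/80lo correlations were 0.121, 0.238 and 0.504, with at most 0.171 for unequal numbers; those of F4/80hi were 0.216, 0.412 and 0.639, with at most 0.285). The pairing is taken from these numbers and deviations, and the methods describe none. Members, gene lists and tests were chosen with earlier results of these data known. All members were named, and genes of other lists where their unadjusted limma p was under 0.05 without the block, beside some that moved in other fits; the genes most like the members are the 10 with the highest correlation among those with a mean of at least 10 in both tables. Figures were drawn with matplotlib 3.10.9. Values of 2 listed genes are not reported here.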

Additional observations from a re-analysis of the deposited data

How the results depend on the processing

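The median log2 fold change of the members stayed above 0 in both subpopulations under every alternative run. In F4/80lo Mϕ the 1 member with an unadjusted p under 0.05 became 0 with no filter on low values or with numbers 1 and 2 only, 5 with the replicate block in limma, and 6 (edgeR) or 4 (DESeq2) with the block on recovered reads. In F4/80hi Mϕ the 2 members became 6 with the block in limma, edgeR or DESeq2, 5 in DESeq2 without it and 5 with numbers 1 and 2 only. At an adjusted p of 0.05, the block took 4 members past the threshold in F4/80hi Mϕ in DESeq2 and none in limma or edgeR. In RPM in place of normalized counts, the 4 members without overlap in F4/80lo Mϕ became 1 and the 5 higher in each number became 2, while the F4/80hi counts (0 and 7) were the same. Leaving out single libraries gave counts of 0 to 4 in F4/80lo (0 without VEH 3, CIII 1 or CIII 3, 2 without CIII 2, 3 without VEH 1, 4 without VEH 2) and of 0 to 7 in F4/80hi Mϕ (0 without VEH 1, VEH 2, CIII 1 or CIII 3, 6 without VEH 3, 7 without CIII 2), with medians of 0.37 to 1.06 and of 0.77 to 2.17. In F4/80lo Mϕ, H2-Oa (-0.18) turned to 0.053 with pseudocount 5, 0.69 in edgeR, 0.60 in DESeq2, 0.10 with numbers 1 and 2 only and 0.018 in edgeR with the block. Over left-out libraries it ran from -1.37 to 0.85, Ciita from -0.39 to 1.45, H2-DMb2 from -0.10 to 1.02, H2-Ob from -0.35 to 1.05, and the H2-Eb1 difference between responses from -1.80 to 0.39. For the difference between responses, 1 member (Ciita) had an unadjusted p under 0.05 in edgeR and in DESeq2 with the block (adjusted p = 0.999 in both). The median log2 ratio of F4/80lo over F4/80hi Mϕ moved from 2.87 to 3.91 (VEH) and from 1.65 to 2.72 (CIII) with numbers 1 and 2 only. The block on recovered reads (edgeR and DESeq2), the counts in RPM, the r without single libraries and the level with numbers 1 and 2 only were chosen after seeing the data. The causes were not tested.

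Over all genes, an unadjusted limma p under 0.05 was reached by 289 genes in F4/80lo (116 higher), 413 in F4/80hi (135 higher) and 173 for the difference. With the block these were 738, 1187 and 539, with numbers 1 and 2 only 616, 779 and 325, in edgeR with the block 661, 1055 and 452, and in DESeq2 with the block 445, 697 and 361. With no filter there were 468 in F4/80lo Mϕ and 352 for the difference. At an adjusted p of 0.05, 0 genes became 2 in DESeq2, 4 in edgeR with the block, 19 in DESeq2 with the block and 12 with numbers 1 and 2 only in F4/80lo, and 94 in DESeq2 with the block in F4/80hi Mϕ. Scaling libraries to the same total moved the F4/80hi median of all genes from 0.053 to 0.155 and the higher calls to 158 of 287 and 248 of 433, with member medians of 0.87 and 1.43. Depth limits H2-Oa, H2-DMb2, H2-Ob and, in F4/80hi Mϕ, Ciita.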
